A study of Mus musculus with 17 samples.

Results

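The 9 genes described here encode the TGF-β cytokines Tgfb1, Tgfb2 and Tgfb3, the activin subunit Inhba, and the matricellular proteins Sparc, Thbs1, Tnc, Postn and Spp1. They were chosen by name, and a gene was read on the probe set that carries its symbol alone in the platform annotation and has the highest mean. By this rule 8 of the 9 genes were measured, among 18193 genes in all, on 17 single-gene probe sets. The annotation used here pairs no probe set with Spp1 (osteopontin), so Spp1 was not analysed here, and 1 probe set that Thbs1 shares with another gene was dropped. Total RNA of colonic mucosa was measured on Affymetrix mouse genome arrays, 1 array per sample, and the 17 samples fell into 6 groups of genotype and day. CD4cre mice (PPAR γ flfl; CD4Cre+) express Cre recombinase from the CD4 promoter and so lack PPAR γ in both CD4+ and CD8+ T cells, while the other cells of the colon keep the gene. The controls are Cre- mice called WT, and both strains are on the C57BL/6J background. Mice received 2.5% dextran sodium sulfate (DSS), which injures the colonic epithelium, in drinking water. Samples were taken before DSS (day 0) and after 2 and 7 days, and every group has 3 of them except the WT group of day 7, which has 2. Neither the age of the mice nor how many mice went into an array is given in the sources used here, so the p-values measure the spread between these samples.

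TGF-β is secreted in a latent form bound to the extracellular matrix, is released by integrins and by thrombospondin 1, and signals through a pair of receptor kinases to Smad factors. Activin A, a dimer of the Inhba product, signals through related receptors. Matricellular proteins are secreted into the matrix and modulate how cells adhere and respond to growth factors rather than serving as its scaffold. In the colon, fibroblasts and other stromal cells are their main source, and several of them rise in wounds.

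Values are gcRMA signals on the log2 scale, so a difference of 1 is a doubling. The background was set at 3.23, under which lie 95% of the values of 104 probe sets for genes that the colon should not express, such as olfactory receptors. Of the 8 measured members, 7 were above it in every sample, and the exception was Tgfb1. Markers of colon epithelium were high in every sample, with a log2 of their summed signal between 16.26 and 17.30, and those of smooth muscle lay between 14.07 and 15.57. Smooth muscle RNA was thus present in the samples, which the study calls colonic mucosa and the sample titles colon. Which layer it came from was not tested. Of the T cell markers 4 of 5 were measured, Cd3e was below background in every sample, and their summed signal was between 5.24 and 5.76. Since the tissue is a mixture of cells, fewer cells of a type and less RNA per cell cannot be told apart. Pancreatic enzyme genes were high in 3 samples, which were replicate 2 of the CD4cre day 0 group, replicate 1 of the CD4cre day 2 group and replicate 2 of the WT day 2 group, and the library of CD4cre day 7 replicate 2 stood apart from its group. Its Pearson correlations over all probe sets with replicates 1 and 3 were 0.980 and 0.978, against 0.992 between these.

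The upstream sequences of the member that passed the test (Sparc) and of a cytokine subunit and a matrix protein that were high in a single CD4cre sample on day 7 (Inhba and Tnc) are shown to let their promoters be compared. Each is the 250 bases before the transcription start in the RefSeq promoter table, build GRCm38.p6, written 5′ to 3′ on the strand of the gene, and capitals mark matches to the Smad CAGA box CAGACA or the TATA box TATAAA on either strand. Sparc lies on the minus strand at chr11:55420081-55420330, Inhba on the plus strand at chr13:16011601-16011850, and Tnc on the minus strand at chr4:64047016-64047265.
Sparc: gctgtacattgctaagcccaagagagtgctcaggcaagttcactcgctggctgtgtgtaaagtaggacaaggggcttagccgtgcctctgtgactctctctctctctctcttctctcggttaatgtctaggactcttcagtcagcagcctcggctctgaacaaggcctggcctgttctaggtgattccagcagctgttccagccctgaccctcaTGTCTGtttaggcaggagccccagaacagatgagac
Inhba: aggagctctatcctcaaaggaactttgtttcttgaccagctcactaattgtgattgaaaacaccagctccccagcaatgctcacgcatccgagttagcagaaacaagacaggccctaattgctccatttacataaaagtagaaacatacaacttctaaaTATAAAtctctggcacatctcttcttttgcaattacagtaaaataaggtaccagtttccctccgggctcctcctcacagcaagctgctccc
Tnc: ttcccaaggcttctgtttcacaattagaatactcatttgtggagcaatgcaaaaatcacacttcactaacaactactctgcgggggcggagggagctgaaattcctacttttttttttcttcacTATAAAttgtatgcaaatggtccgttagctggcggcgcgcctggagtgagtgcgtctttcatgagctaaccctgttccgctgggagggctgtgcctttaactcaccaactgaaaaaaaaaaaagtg
The Sparc window holds a CAGACA match on the opposite strand from -36 to -31 and no TATAAA. Those of Inhba and Tnc hold TATAAA from -91 to -86 and from -126 to -121, and no CAGACA. Tnc has a second start in the table, downstream of the first, and the window of that start does hold CAGACA on the opposite strand from -71 to -66, so Sparc and Tnc do not differ in this motif over both starts. The table has 10 promoters for 7 of the 9 genes, of which 4 hold CAGACA, 6 hold TATAAA and 0 hold the AP-1 motif TGANTCA. The 6 TATAAA matches are 5 distinct sites, since the windows of the Tnc starts share one. Over all 32851 promoters these motifs were in 17.1%, 12.4% and 6.75%. The matches are a description of letters, not of sites in use.

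To ask how the colon of each strain responded to DSS, days 2 and 7 were compared with day 0, and days 7 with 2, within each genotype. In CD4cre mice on day 7, Sparc was 3.03-fold higher than on day 0, and it was the only measured member that passed the test in any of the 11 comparisons made with limma. Thus 1 of 8 members was called in CD4cre mice on day 7 against day 0, where 8.67% of all genes were called, so that a single call among 8 genes is near the background and is a result about Sparc, not about the members together. On the same comparison 7 of 8 members had a positive log2 fold change, with a median of 1.14, against a median of -0.03 over all genes, of which 34.0% were positive. Without CD4cre day 7 replicate 2, 5 of 8 were positive with a median of 0.25, against -0.02 over all genes. No member was called on day 2 against day 0 in CD4cre mice (0.0165% of all genes called) or in WT mice (0.731%), nor on day 7 against day 0 in WT mice (0.104%). None was called on day 7 against day 2 in CD4cre (7.33%) or in WT mice (0.335%). Before adjustment, p was under 0.05 for 4 members on day 7 and 2 on day 2 in CD4cre mice, 2 on day 7 against day 2 in CD4cre mice, and 0 in the 3 comparisons within WT mice. The share of all genes under this unadjusted level is not given here, so these counts are no result about the members together. The DSS comparisons of a genotype share their day 0 samples.

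**Figure D1:**
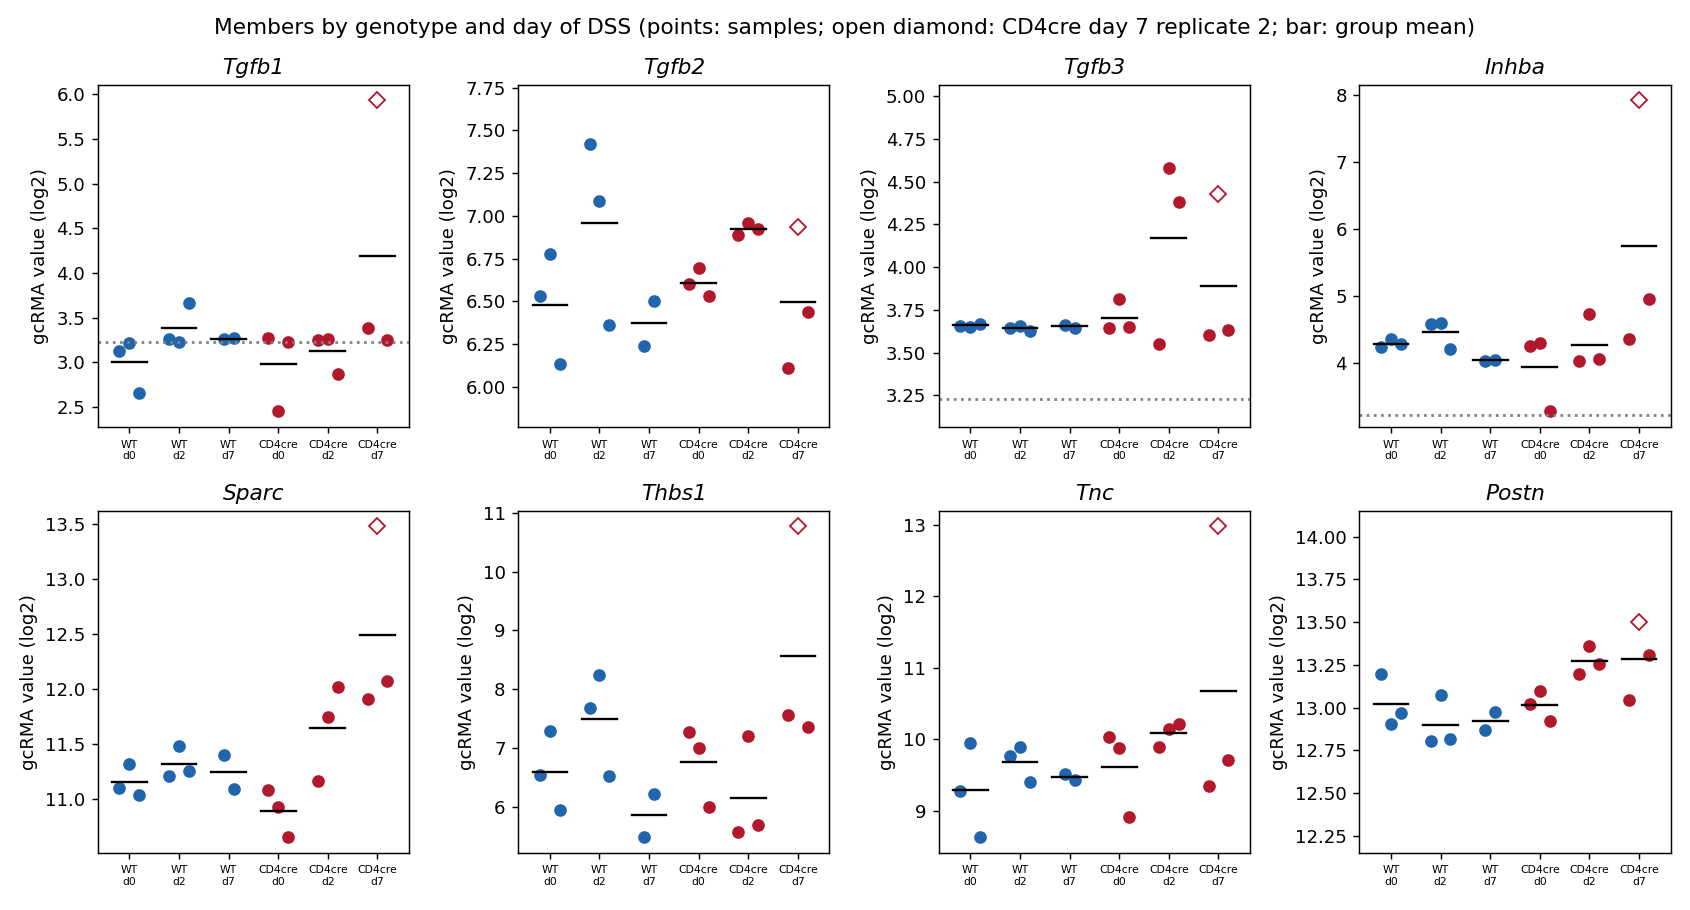
Log2 gcRMA values of the 8 measured members in WT and CD4cre colons before and under DSS; points are samples, bars are group means, the open diamond is CD4cre day 7 replicate 2, and the dotted line is the background level of 3.23. Sparc is above all day 0 values in all 3 CD4cre samples on day 7, while Tgfb1, Inhba, Thbs1 and Tnc are far above the rest in replicate 2 alone.

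Sparc (osteonectin) is a collagen-binding glycoprotein secreted by fibroblasts and endothelial cells. In CD4cre mice it was at 11.09, 10.93 and 10.66 on day 0, at 11.16, 11.75 and 12.02 on day 2, and at 11.92, 13.48 and 12.08 on day 7. In WT mice it was at 11.11, 11.32 and 11.04 on day 0, at 11.22, 11.48 and 11.26 on day 2, and at 11.40 and 11.10 on day 7. Within CD4cre mice neither day 2 nor day 7 overlapped day 0, while days 2 and 7 overlapped each other, and the WT groups overlapped on all days. The log2 fold change on day 7 was 1.60 in CD4cre mice (SE 0.34, adjusted p = 0.018) and 0.09 in WT mice (SE 0.38, adjusted p = 0.938). On day 2 it was 0.75 in CD4cre mice (SE 0.34, adjusted p = 0.753) and 0.17 in WT mice (SE 0.34, adjusted p = 0.875). A second Sparc probe set was at 10.25, 10.39 and 10.31 on day 0 and at 11.20, 13.06 and 11.35 on day 7 in CD4cre mice. It was also called, at 1.55 (SE 0.41, adjusted p = 0.0453). The third Sparc probe set was at background. Without CD4cre day 7 replicate 2 the rise of Sparc was 1.11 (SE 0.22, adjusted p = 0.0162) and still passed. The call ended when CD4cre day 0 replicate 2 or replicate 3 was left out (1.62 and 1.48 remained, with adjusted p = 0.0582 and 0.0606), without the 3 samples with pancreatic transcripts (1.62, adjusted p = 0.0833), and in a fit of the groups compared alone (1.60, adjusted p = 0.211). Over all alternatives the adjusted p was 0.00495 to 0.211.

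The genes whose pattern over the 17 samples was most like that of Sparc were Col1a2, Emp3 and Snai2. Likeness was the root mean square difference of values centred on the mean of each gene, among 11908 genes with a mean above background, and was 0.158 for Col1a2, a chain of type I collagen, 0.176 for Emp3, a membrane protein, and 0.180 for Snai2, a transcription factor of mesenchymal cells. As likeness was taken over these same samples, a rise near that of Sparc follows from the choice and is no separate result. In CD4cre mice on day 7 each passed the test, with log2 fold changes of 1.50 for Col1a2, 1.37 for Emp3 and 1.64 for Snai2. Of these, Col1a2 was at 12.07, 12.01 and 11.65 on day 0, at 12.54, 12.56 and 12.80 on day 2 and at 12.97, 14.18 and 13.09 on day 7 in CD4cre mice, without overlap between the days.

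Among the ligands, Inhba was the one with the largest difference, though it did not pass. It was at 4.27, 4.30 and 3.29 on day 0 and at 4.37, 7.92 and 4.97 on day 7 in CD4cre mice, which gives 1.80 as the log2 fold change (SE 0.68, adjusted p = 0.145). On day 2 in CD4cre mice it was at 4.03, 4.73 and 4.06, and in WT mice it ranged from 4.04 to 4.60 over the 8 samples. The groups of days 0 and 7 did not overlap in CD4cre mice, but replicate 2 was 9.54-fold above the mean of replicates 1 and 3, and without it the log2 fold change was 0.72 (SE 0.31, adjusted p = 0.243).
Tgfb1, the TGF-β made by most leukocytes and stromal cells, was read on a probe set at the edge of background. It lay between 2.45 and 3.66 in 16 samples and at 5.93 in CD4cre day 7 replicate 2, where replicates 1 and 3 had 3.38 and 3.25. Its log2 fold change in CD4cre mice on day 7 was 1.21 with replicate 2 (SE 0.55, adjusted p = 0.216) and 0.33 without it (SE 0.25, adjusted p = 0.493). A second Tgfb1 probe set was below background in every sample, replicate 2 included.
Tgfb2, a TGF-β that needs the coreceptor Tgfbr3 for efficient signalling, passed the test in no comparison. In CD4cre mice it was at 6.60, 6.69 and 6.53 on day 0, at 6.89, 6.96 and 6.92 on day 2 and at 6.11, 6.94 and 6.44 on day 7, and the day 7 value differed from day 0 by -0.11 (SE 0.26, adjusted p = 0.784). In WT mice it ranged from 6.14 to 6.78 on day 0 and from 6.36 to 7.42 on day 2, and was at 6.24 and 6.50 on day 7, so day 2 had the highest mean in both genotypes, with no call.
Tgfb3, the third TGF-β cytokine, was between 3.63 and 3.67 in all 8 WT samples. In CD4cre mice it was at 3.64, 3.82 and 3.65 on day 0, at 3.55, 4.58 and 4.38 on day 2 and at 3.60, 4.43 and 3.63 on day 7. Thus 3 CD4cre samples, all under DSS, were above 4, and the log2 fold changes of 0.47 on day 2 (SE 0.24, adjusted p = 0.754) and 0.19 on day 7 (SE 0.24, adjusted p = 0.623) did not pass.

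**Figure D2:**
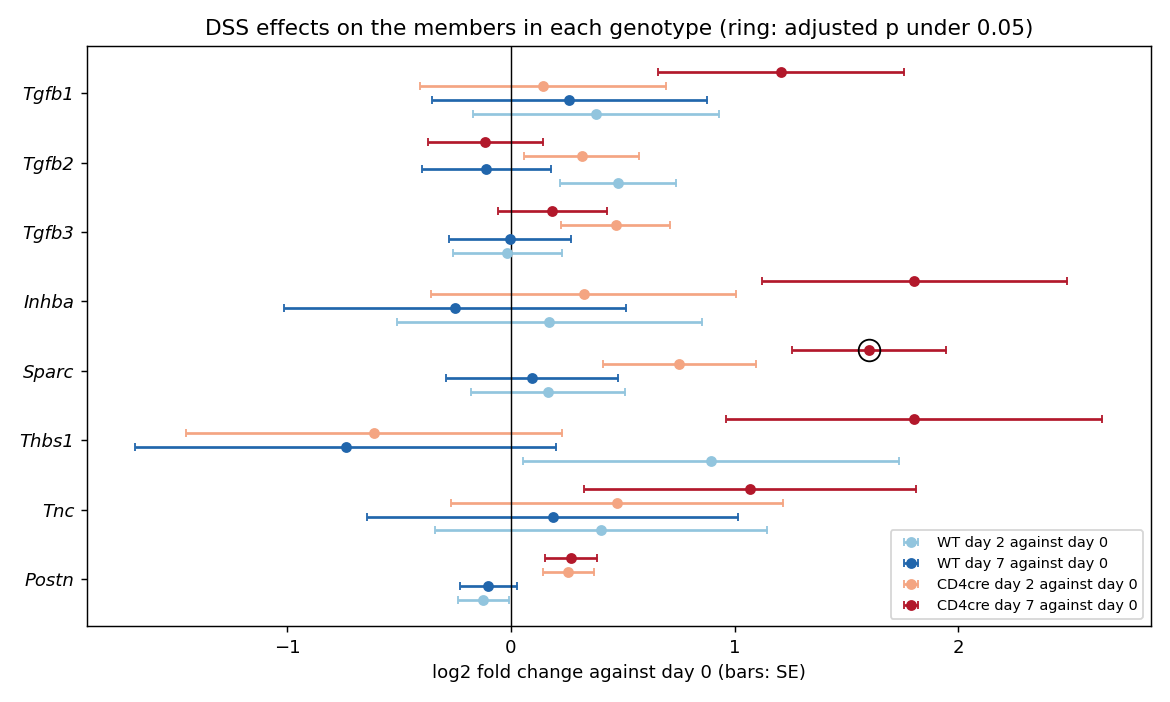
Log2 fold changes against day 0 of the 8 measured members on days 2 and 7 of DSS in WT and CD4cre mice, with SE as bars; a ring marks an adjusted p under 0.05. The ring is on Sparc in CD4cre mice on day 7 (1.60), and the bars of Thbs1, Inhba and Tnc are wide.

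Thbs1 (thrombospondin 1) is released by platelets and stromal cells and activates latent TGF-β. In CD4cre mice it was at 7.27, 7.00 and 6.00 on day 0, at 5.56, 7.20 and 5.68 on day 2 and at 7.56, 10.77 and 7.35 on day 7, so that day 7 lay above both earlier days. In WT mice it was at 6.54, 7.29 and 5.95 on day 0, at 7.69, 8.25 and 6.53 on day 2 and at 5.48 and 6.22 on day 7, where day 7 lay below day 2. The log2 fold change on day 7 against day 0 was 1.80 in CD4cre mice (SE 0.84, adjusted p = 0.224) and -0.74 in WT mice (SE 0.94, adjusted p = 0.737). Against day 2 it was 2.41 in CD4cre mice (SE 0.84, adjusted p = 0.126), and 1.31 without CD4cre day 7 replicate 2 (adjusted p = 0.315). With a score of gut position as a covariate, it was 3.48 against day 2 and 2.14 against day 0, and both passed (adjusted p = 0.0122 and 0.0489). This score was added after the data were seen, and it was not fitted without CD4cre day 7 replicate 2. Replicate 2 was 9.95-fold above the mean of the other CD4cre samples of day 7, and without it the log2 fold change against day 0 was 0.70 (SE 0.64, adjusted p = 0.565).
Tnc (tenascin C), a matrix glycoprotein of healing tissue, was at 10.03, 9.87 and 8.91 on day 0, at 9.90, 10.15 and 10.20 on day 2 and at 9.34, 12.98 and 9.71 on day 7 in CD4cre mice. Replicates 1 and 3 of day 7 thus lay within the range of day 0, and replicate 2 was 10.9-fold above their mean. In WT mice Tnc ranged from 8.63 to 9.95 over the 3 days. The log2 fold change in CD4cre mice on day 7 was 1.07 (SE 0.74, adjusted p = 0.366) and -0.08 without replicate 2. The second Tnc probe set was at 10.09 in replicate 2 and between 3.34 and 5.23 in the other 16 samples.
Postn (periostin), a fibroblast protein that binds collagen and tenascin C, had small differences. It was between 12.80 and 13.20 in the WT samples, and in CD4cre mice at 13.02, 13.10 and 12.92 on day 0, at 13.19, 13.36 and 13.26 on day 2 and at 13.04, 13.50 and 13.30 on day 7. Its log2 fold changes in CD4cre mice were 0.26 on day 2 and 0.27 on day 7 (SE 0.11 for both, adjusted p = 0.741 and 0.191).

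In order of group means, CD4cre mice on day 7 were the highest group for Tgfb1, Inhba, Sparc, Thbs1, Tnc and Postn, WT mice on day 2 for Tgfb2 and CD4cre mice on day 2 for Tgfb3. Without replicate 2 of CD4cre day 7, that group was the highest for Inhba and Sparc only, WT mice on day 2 for Tgfb1 and Thbs1, and CD4cre mice on day 2 for Tnc and Postn. With all samples, in no member did the range of the highest group clear that of the group next in order. Of all neighbours in these orders, those without overlap were CD4cre day 2 over CD4cre day 0 for Tgfb2 and CD4cre day 2 over WT day 2 for Tnc. CD4cre day 7 replicate 2 was the highest of the 17 samples for 6 of the 8 members, against 19.8% of 11909 genes with a mean above background.

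**Figure D3:**
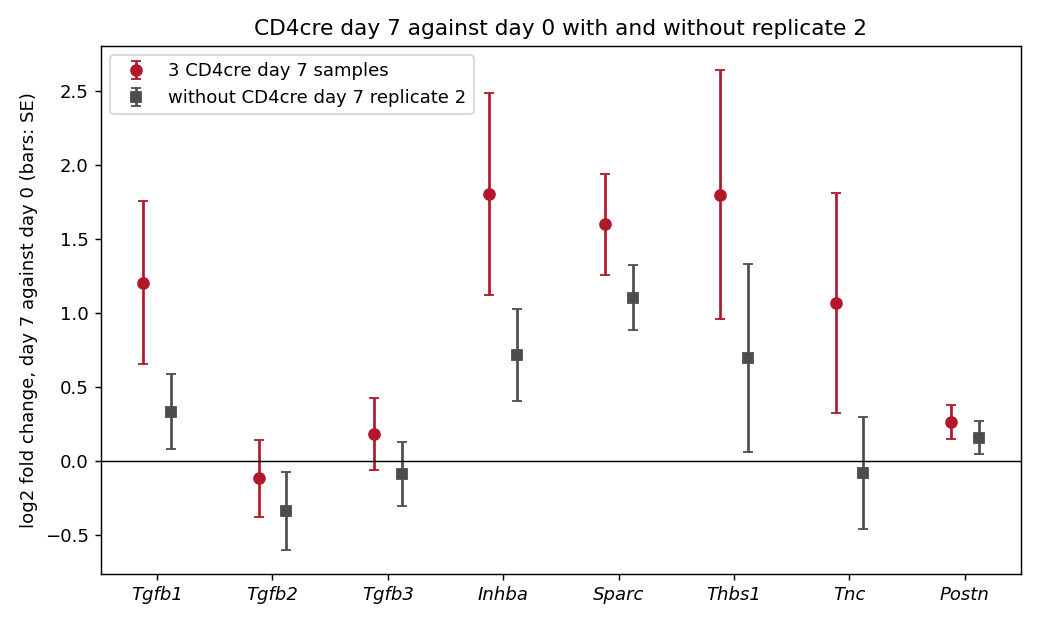
Log2 fold changes of the members in CD4cre mice on day 7 against day 0, with all 3 day 7 samples (circles) and without replicate 2 (squares); bars are SE. Without replicate 2, Sparc is at 1.11 and Tnc falls from 1.07 to -0.08.

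The question of the study, whether loss of PPAR γ in T cells changes the colon in colitis, was addressed by comparing the genotypes on each day. No member was called between CD4cre and WT mice on day 0 (0.011% of all genes called), day 2 (0.0275%) or day 7 (2.03%). Before adjustment, p was under 0.05 for 0, 1 and 4 members, counts that are likewise given without the share of all genes and are no result about the members together. On day 7 the 4 were Sparc, with a difference of 1.24 (CD4cre minus WT, SE 0.38, adjusted p = 0.137), Thbs1 with 2.71 (SE 0.94, adjusted p = 0.185), Postn with 0.36 (SE 0.13, adjusted p = 0.196) and Inhba with 1.71 (SE 0.76, adjusted p = 0.314). For each of these 4 genes, all 3 CD4cre samples were above both WT samples, as was so for 11.4% of all genes. Without CD4cre day 7 replicate 2 the differences were 0.75 for Sparc, 1.60 for Thbs1, 0.25 for Postn and 0.62 for Inhba. On day 2 it was Postn, at 13.19 to 13.36 in CD4cre and 12.80 to 13.08 in WT mice, which is 0.37 apart (SE 0.11, adjusted p = 0.407).
Whether DSS acted differently in the genotypes was itself tested. No member passed on day 7 (0.159% of all genes called) or on day 2 (0% called). On each day 1 member had an unadjusted p under 0.05, again given without the share of all genes. On day 7 this was Sparc, whose DSS effect in CD4cre mice exceeded that in WT mice by 1.51 (SE 0.51, adjusted p = 0.312). Sparc thus passed in CD4cre mice and not in WT mice, while the test of the difference itself did not pass. On day 2 it was Postn, with 0.38 (SE 0.16, adjusted p = 1.0).

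Genes that act with these members were read from lists of textbook members. In CD4cre mice on day 7 against day 0, 8.67% of all genes were called, and 6.89% without CD4cre day 7 replicate 2. A list below with 1 or 2 calls is near that share, and such calls are results about single genes, not about the list. In CD4cre mice on day 7, 8 of the 17 measured genes that TGF-β commonly induces rose and 0 fell, with a median log2 fold change of 1.39 over the 17, against -0.03 over all genes. The same 8 genes passed without CD4cre day 7 replicate 2, where the median was 1.09. They include the collagens Col1a1, Col1a2 and Col3a1 with log2 fold changes of 1.77, 1.50 and 1.39. Timp1, an inhibitor of metalloproteinases, was 5.25 higher on the log2 scale (SE 0.57, adjusted p = 0.000758), Junb, a subunit of AP-1, 1.86 higher, and Plaur, the urokinase receptor, 1.80 higher. Timp1, Plaur and Junb were also higher in CD4cre than in WT mice on day 7 (differences of 3.21, 2.03 and 1.95, adjusted p = 0.0336, 0.0359 and 0.0377). These counts depended on the settings: the list had 1 call without the 3 samples with pancreatic transcripts (Timp1). With each of the 17 samples left out in turn it had 5 to 10 calls, and the call of Col1a1 ended in 3 of these fits and that of Plaur in 1. Over the lists described here and after, no call against day 0 held when the model used those groups by themselves, and of these genes Timp1, Tgfbr3, Smad3, Fbln2 and Stab1 kept it without the samples with pancreatic transcripts.
Of 14 inhibitors and feedback genes, 5 rose and 1 fell. Bambi, a decoy receptor for TGF-β, fell by 1.63 (SE 0.32, adjusted p = 0.013), from a mean of 7.98 to 6.35. Among feedback genes of the Smad pathway, Pmepa1 and Skil rose by 1.55 and 1.27 (adjusted p = 0.0232 and 0.0145). Smad6 and Smad7, read with the Smad factors, went the other way (-0.51 and -0.45, adjusted p = 0.222 and 0.0888) and were not called. The matrix proteoglycans Bgn and Dcn, which bind TGF-β, rose by 1.17 and 1.02 (adjusted p = 0.0472 and 0.00662). Pmepa1 and Skil are also among the called genes that TGF-β commonly induces, so they count in both lists. Of these 6 calls, 4 held without replicate 2, and those of Bgn and Ski ended. With each of the 17 samples left out in turn, the call of Bgn ended in 14 fits, that of Ski in 3, that of Pmepa1 in 2, and those of Bambi and Skil in 1 each.
Of 10 receptors, Tgfbr3 (betaglycan), which presents TGF-β2 to its signalling receptors, was the 1 called, at a mean of 9.37 on day 0 and 10.99 on day 7 (a rise of 1.62, SE 0.19, adjusted p = 0.000972), and it passed without replicate 2. Of 7 Smad factors, Smad3, a carrier of TGF-β and activin signals, was called with 0.49 (adjusted p = 0.0134), but not without CD4cre day 0 replicate 1 (adjusted p = 0.052). Of 9 measured genes of TGF-β latency and activation, the integrin subunit Itgav was called with 1.29 (adjusted p = 0.0177), but not without CD4cre day 0 replicate 1 or replicate 3 (adjusted p = 0.0516 and 0.0628). Itgb6, the partner of Itgav that is induced in injured epithelium, was called on day 7 against day 2 (2.06, adjusted p = 0.0228).
Of 3 other activin and inhibin subunits, Inhbb, the subunit of activin B, was called. It was at background on day 0 and had a mean of 5.53 ± 1.63 (SD, n = 3) on day 7 in CD4cre mice, at least 4.93-fold higher (adjusted p = 0.00668), and it was also called over WT mice on day 7, where it was at background (adjusted p = 0.0305). Its values on day 7 in CD4cre mice were 4.50, 7.40 and 4.69, and without replicate 2 the bound was 2.57-fold, with the call against day 0 kept. Values at background hardly varied (SD 0.009 in CD4cre mice on day 0), which lowers the estimate of spread behind these calls.
Of 27 other matricellular genes, 2 rose and 0 fell, with a median of -0.01, which is near the 8.67% of all genes called. Fbln2 (fibulin 2) rose by 2.20 (SE 0.28, adjusted p = 0.00141) and was 2.05 higher than in WT mice on day 7 (adjusted p = 0.0131), and Spon2 rose by 2.06 (adjusted p = 0.0469). The call of Spon2 ended in 14 of 17 fits with 1 sample left out, among them the fit without CD4cre day 7 replicate 2. Without that sample the list had 1 rise, of Fbln2, and 2 falls, of Sparcl1 (-1.02, adjusted p = 0.00744) and Smoc2 (-1.35, adjusted p = 0.0429), which with all samples were at -0.75 and -0.49 and not called. Of 13 receptors for matricellular proteins, 3 rose and 0 fell: Stab1, a scavenger receptor of macrophages and endothelium that takes up Sparc (2.52, adjusted p = 0.00212), Itgav, already counted under latency and activation, and Cd47, a receptor of thrombospondin 1 (0.90, adjusted p = 0.01).

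**Figure D4:**
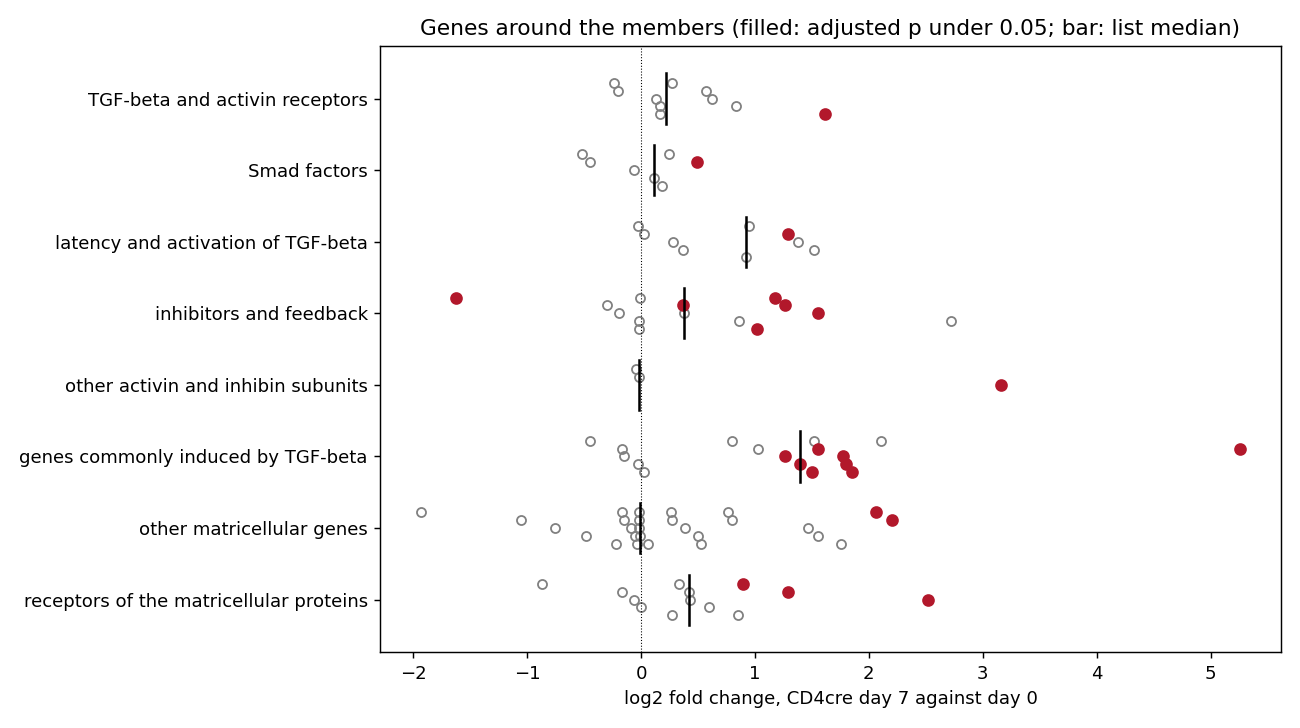
Log2 fold changes in CD4cre mice on day 7 against day 0 of the genes in each list around the members; filled points had an adjusted p under 0.05, open points did not, and bars are list medians. Genes commonly induced by TGF-β have the highest list median (1.39), and the median of the other matricellular genes is -0.01.

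Markers of cell types were read in the same samples. In CD4cre mice on day 7 against day 0, 2 of 5 measured neutrophil markers and 1 of 5 endothelium markers were called higher. None was called for smooth muscle, colon epithelium, platelets, T cells or pancreatic acinar cells. The log2 of the summed signal of 8 fibroblast markers was 12.91 to 13.01 on day 0, 13.12 to 13.71 on day 2 and 13.20 to 14.48 on day 7 in CD4cre mice, and 12.83 to 13.15 in WT mice, and 2 of the 8 were called higher in CD4cre mice on day 7. Of 10 measured monocyte and macrophage markers 9 were called higher, and their summed signal was 11.69 to 11.88 on day 0 and 13.18 to 14.32 on day 7 in CD4cre mice, against 12.46 to 13.19 on day 2 and 12.52 to 12.66 on day 7 in WT mice. In neutrophil markers, of which 5 were measured and Mpo was below background in every sample, the summed signal was 5.04 to 5.07 on day 0, 10.31 to 12.95 on day 7 in CD4cre mice, and 6.78 to 7.17 on day 7 in WT mice. CD4cre day 7 replicate 2 had the highest value of the 17 samples for fibroblasts (14.48), monocytes and macrophages (14.32), neutrophils (12.95), endothelium (10.14) and platelets (9.45), and the lowest of its group for colon epithelium (16.42, against 17.17 and 17.05). Of the platelet markers, 3 of 4 measured were below background in every sample. In CD4cre mice the smooth muscle markers lay at 14.61 to 15.46 on day 0, 14.94 to 15.57 on day 2 and at 14.07 to 14.84 on day 7. The part of these cells in the values of the members was not tested.
Hox genes differ in level along the gut and were read as a guide to the position of each sample. A score was taken as the mean of 9 posterior Hox genes minus the mean of 8 anterior ones. In CD4cre mice it was -1.26 to 0.19 on day 0, -0.31 to 0.52 on day 2 and -1.22 to 0.21 on day 7. Replicate 2 of CD4cre day 7 was at 0.21, and replicates 1 and 3 were at -1.01 and -1.22. In WT mice the score was -1.12 to -0.03 on day 0, 0.77 to 1.13 on day 2 and -1.49 to -1.36 on day 7. With this score as a covariate Sparc stayed called in CD4cre mice on day 7 (1.70, adjusted p = 0.00782), and Inhba (2.07, adjusted p = 0.0299) and Thbs1 were called as well. As no fit used the score without replicate 2, these added calls cannot be separated from that sample. Between genotypes on day 7, where the WT scores lie outside the CD4cre range, the same covariate took the difference of Thbs1 from 2.71 to 1.65, that of Inhba from 1.71 to 0.88 and that of Sparc from 1.24 to 0.93, and none was called. The scores of the genotypes did not overlap on day 2 either, so a difference between genotypes on that day cannot be told apart from position.

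**Figure D5:**
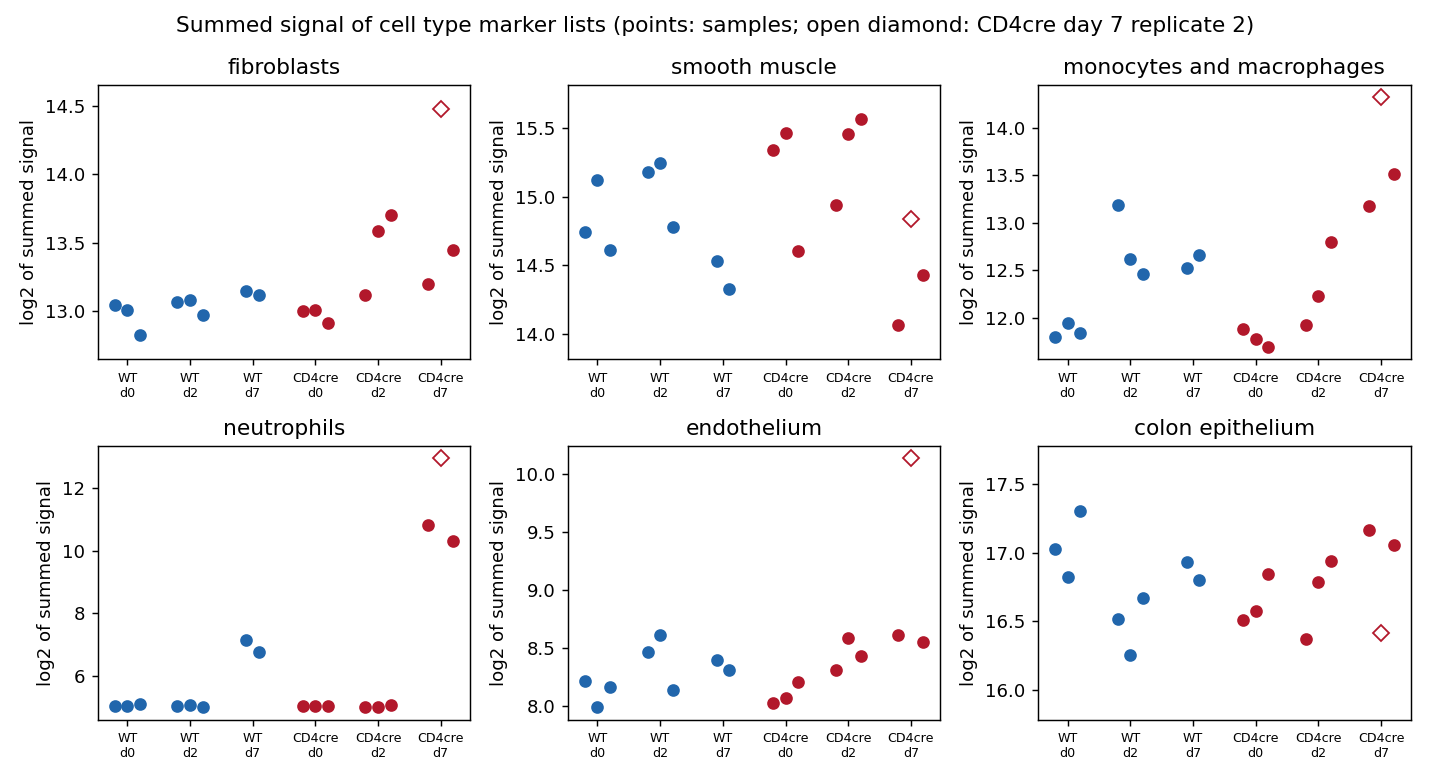
Log2 of the summed signal of cell type marker lists in each sample by genotype and day of DSS; the open diamond is CD4cre day 7 replicate 2. This sample is the highest of all for fibroblasts (14.48), monocytes and macrophages, neutrophils and endothelium.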

How the data were processed

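Raw arrays were read with affy and processed by the authors with gcRMA in R 2.9.0 (background adjustment, normalization between arrays, probe set summary), and the deposited values are on the log2 scale. Of 45101 rows, 64 controls were removed, and the other 45037 probe sets entered the tests with no filter. Of these, 34945 carry 1 gene in the platform annotation, 932 several and 9160 none. Group means of all 6 groups were modelled together with limma 3.58.1 (R 4.3.3), the tool the study names, and variances were moderated by empirical Bayes with 0.888 prior beside 11 residual degrees of freedom. A call is a two-sided p under 0.05 after Benjamini-Hochberg adjustment over all tested probe sets, separately in each of 11 comparisons, and the fit was tested on simulated data. The number of arrays limits the precision. Where a group lay at background, the fold uses 3.23 in its place and is a lower bound. The rule for named genes takes every member, up to 4 called genes of a list with the largest change and no overlap, and the 3 genes most like a called member. Col3a1, Dcn, Ski, Smad6, Smad7, Sparcl1, Smoc2 and, between genotypes, Junb fall outside it and were named after their values were seen. The members, lists and rules were chosen with earlier results of these data known. Alternatives were fits of fewer groups, trend and robust options, quantile normalization, median centring, a filter, weights, a replicate block, other probe sets, and samples left out. After the data were seen, a position score and the fit without samples with pancreatic transcripts were added. Replicate numbers are not stated to pair samples, so the main fit has no block. Of 40 pairs of same-numbered samples from different groups, 15 had a correlation over 0.1 in their deviations from group means (-0.45 to 0.51). These were not set against pairs with different numbers, so they cannot decide whether the numbers mark a pairing.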

Additional observations from a re-analysis of the deposited data

How the results depend on the processing

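The count of members called stayed at its value in 288 of 297 refits of the 11 comparisons. In all comparisons but CD4cre day 7 against day 0 that value was 0, so an unchanged count there says little about stability. For CD4cre mice on day 7 against day 0, where 1 member was called, fitting just those groups gave 0 (0.0622% of all probe sets called, against 6.74% with all groups), as did leaving out the samples with pancreatic RNA (1.91%), and the position score as covariate gave 3 (9.71%). With each sample left out in turn the count was 0 to 1, and 0 without CD4cre day 0 replicate 2 or replicate 3. Elsewhere, where 0 were called, array weights gave 1 in WT mice on day 2, where 18.4% of all probe sets were then called against 0.449%, the replicate block 1 on day 7 against day 2 in CD4cre mice (Thbs1 at 2.41, adjusted p = 0.0324 by limma) and 1 between genotypes on day 7 (Thbs1 at 3.11, adjusted p = 0.0468), and the position score 2 on day 7 against day 2 in CD4cre mice. The replicate block, whose numbers are not stated to pair the samples, changed no other call of a member. The log2 fold change of Sparc was 1.11 to 1.89 over the samples left out. Those of Tgfb2 (-0.33 to 0.078), Tgfb3 (-0.085 to 0.33) and Tnc (-0.080 to 1.74), not called, changed sign without CD4cre day 7 replicate 1 for Tgfb2 and replicate 2 for Tgfb3 and Tnc, and Tgfb3 was at -0.031 with array weights. Probe sets near or below background gave -0.12 for Tgfb1, 0.14 for Tgfb2, whose brighter ones gave -0.54 and -0.17, and, for Inhba, -0.026 against day 0 and -0.0051 between genotypes. The second probe set of Tnc gave 2.24 and that of Thbs1 1.60, neither called. The third probe set of Sparc gave -0.019 against day 0, -0.034 against day 2, -0.0067 between genotypes and -0.016 for the difference of DSS effects. The causes were not tested. Members near background, Tgfb1 and Tgfb3, have little range in which a fall could be seen.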
